A study of Mus musculus with 2 samples.

Results

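The metallothionein genes Mt1, Mt2 and Mt3 were examined in single-cell RNA sequencing of mouse intestinal organoids that carry a mutation in Apc. These 3 genes, of 13373 in the deposited table, were taken by their row names. They were picked with their levels in these cells already known, so every level, difference and correlation given for them is a description, with no test. Mt4, the remaining gene of the family in the table, is set beside them for comparison.

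Organoids are miniature gut-like cultures that grow in a gel. Both groups were labelled as Apc mutant organoids of strain C57Bl, with an age of 3 to 4 months. The groups were a DBZ library of 1241 cells, treated with an inhibitor of gamma-secretase, the enzyme that frees the active part of Notch receptors, and a library of 968 cells that received DMSO, the vehicle. A protocol shared by both names 300 nM 4-hydroxytamoxifen and 10 uM DBZ, so DBZ stands there for the vehicle as well, and groups were taken from the titles. The labels do not state how many mice or cultures gave the cells, or what drives the Apc mutation. With 1 library per group, every difference compares these libraries and not the treatments.

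Metallothioneins are small proteins rich in cysteine that hold zinc and copper. Mt1 and Mt2 are made in most tissues and are switched on by zinc through MTF1, a zinc-sensing factor that binds metal response elements in their promoters. Glucocorticoids and oxidative stress can raise them as well. Mt3 is best known from the brain and Mt4 from stratified epithelia such as skin. In the intestine, metallothioneins buffer zinc taken up from the diet, and Paneth cells of the crypt are rich in zinc.

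Transcripts were counted as UMIs (unique molecular identifiers, each standing for 1 captured molecule), with medians per cell of 10901 for DBZ and 11183 for DMSO and totals of 16168229 and 13083018. Epcam and Krt8, genes of epithelial cells, had UMIs in 98.95 to 99.8% of cells of each library. Fibroblast and immune markers were not analysed here, and the endothelial markers Pecam1 and Cldn5 summed to 0.0488 and 0.0239 UMIs per 10000. Paneth, enteroendocrine and goblet markers were higher in the DBZ library (9 of 9, 11 of 11 and 5 of 5 measured), with summed levels of 200.1 against 48.4, 19.3 against 4.76 and 21.1 against 4.01 UMIs per 10000. Stem cell, mitosis and DNA replication markers were lower (7 of 8, 10 of 10 and 12 of 12), and 3 cell barcodes occurred in both libraries. The median log2 difference, DBZ over DMSO, was 0.10 over the 12921 genes with UMIs in 1% or more of either library's cells, and 63.5% of these genes lay above 0.

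The 4 genes lie in a row on the plus strand of chromosome 8 (GRCm38, the build named mm10 in the submitters' processing notes). Mt4 comes first (94137197 to 94139031), then Mt3 (94152607 to 94154146), Mt2 (94172664 to 94173568) and Mt1 (94179082 to 94180327), all protein coding in GENCODE M21. The gap is 13575 bases from Mt4 to Mt3, 18517 from Mt3 to Mt2 and 5513 from Mt2 to Mt1. The 250 bases before the RefSeq start of each member (GRCm38.p6, plus strand) are printed to show where the core of the metal response element occurs. They cover chr8:94178839-94179088 for Mt1, chr8:94172368-94172617 for Mt2 and chr8:94152357-94152606 for Mt3. Capitals mark every match to the element's core, searched as TGCACNC and TGCGCNC on both strands.
Mt1: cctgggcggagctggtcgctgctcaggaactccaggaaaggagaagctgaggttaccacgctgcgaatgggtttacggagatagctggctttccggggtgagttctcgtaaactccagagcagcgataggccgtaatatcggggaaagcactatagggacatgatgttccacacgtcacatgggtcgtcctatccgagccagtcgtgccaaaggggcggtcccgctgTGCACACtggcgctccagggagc
Mt2: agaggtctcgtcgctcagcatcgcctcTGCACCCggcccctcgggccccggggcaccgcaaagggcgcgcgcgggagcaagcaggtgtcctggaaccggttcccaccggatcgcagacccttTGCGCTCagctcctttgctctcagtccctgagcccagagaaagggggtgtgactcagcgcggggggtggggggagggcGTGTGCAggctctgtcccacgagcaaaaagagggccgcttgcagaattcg
Mt3: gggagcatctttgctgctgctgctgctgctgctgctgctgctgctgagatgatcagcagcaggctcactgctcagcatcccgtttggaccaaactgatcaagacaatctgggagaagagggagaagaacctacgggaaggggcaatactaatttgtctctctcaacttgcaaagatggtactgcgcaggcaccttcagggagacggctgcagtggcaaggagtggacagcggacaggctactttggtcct

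Further matches lay just after the annotated start, at bases 3 to 27 for Mt1 (chr8:94179091-94179115), 5 to 11 for Mt2 (chr8:94172622-94172628) and 28 to 34 for Mt3 (chr8:94152634-94152640). RefSeq and GENCODE place the start of Mt2 and of Mt1 at different bases, so which side of the start a match falls on depends on the annotation.
Mt1: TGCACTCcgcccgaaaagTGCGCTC
Mt2: GTGCGCA
Mt3: TGCACAC
In the whole RefSeq window, from 250 bases before to 50 after the start, Mt2 had 4 matches, Mt1 had 3, and Mt3 and Mt4 had 1 each. Bases outside this window were not searched. The counts therefore hold for the window and do not rank the genes by all their elements. Of 32851 such windows in the table, 25.7% held at least 1 match, 1.97% at least 3 and 0.517% at least 4. A core of the hypoxia response element (ACGTG or GCGTG, both strands), which can overlap the metal response core, had 2 matches in Mt1 and 2 in Mt2. Mt3 and Mt4 had 0. Of all windows, 43.8% held at least 1 such match and 20.6% at least 2. The antioxidant response core (TGACNNNGC, both strands) had 1 match in Mt2 and 0 in the other 3 genes, against 12.4% of windows. A match describes the letters only, and whether it bears on the levels was not tested.

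Mt1 was the most abundant member, and its median level was close in both libraries. DBZ cells had a median of 4.04 UMIs per 10000 (lowest 0, highest 300.0) and DMSO cells one of 4.12 (lowest 0, highest 249). At least 1 UMI of Mt1 occurred in 91.9% of cells with DBZ (exact 95% interval 90.3 to 93.4%) and 90.8% with DMSO (88.8 to 92.6%). After each cell was thinned to 5000 UMIs the shares were 79.0 and 78.4%. The libraries came apart in the upper part of the distribution: the 75th percentile was 8.67 against 8.11, the 90th 19.1 against 15.3 and the 99th 75.2 against 46.6. Cells with at least 20 UMIs of Mt1 per 10000 made up 9.19% of the DBZ library (114 cells, 7.64 to 10.9%) and 6.82% of the DMSO library (66 cells, 5.31 to 8.59%), with overlapping intervals. This form is that of whole libraries, which differed in make-up. Inside 7 clusters with enough cells of both libraries (described further on), the Mt1 median was higher with DBZ in 6. The mean over all cells was higher with DBZ, 9.10 against 7.15, a log2 difference of 0.35. Summed over all cells, UMIs gave 0.24 (95% counting interval 0.20 to 0.28, from 15107 and 10358 UMIs). Intervals cover counting error only, and cells vary far more than counting error.

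Mt2 showed the same form at a lower level. Its median was 0.864 UMIs per 10000 with DBZ (range 0 to 185) and 0.941 with DMSO (0 to 41.8), and its UMIs were in 58.8% (56.0 to 61.6%) and 60.3% (57.2 to 63.4%) of cells. After thinning the shares were 44.1 and 42.4%, so their order turned, and the intervals overlapped with and without thinning (41.3 to 46.9% and 39.2 to 45.5% when thinned). The 90th percentile was 7.45 against 5.35 and the 99th 37.3 against 18.6. The mean was 3.22 against 2.17, a log2 difference of 0.56, or 0.41 (0.35 to 0.47) from 5359 and 3260 pooled UMIs. Cells with at least 20 UMIs of Mt2 per 10000 were 37 of the DBZ library (2.98%, 2.11 to 4.09%) and 8 of the DMSO library (0.826%, 0.357 to 1.62%). At a level of 10 they were 7.82% (6.38 to 9.45%) and 4.96% (3.68 to 6.52%). These intervals, which take the cells of 1 library as units, lie apart at 20 and overlap at 10.

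Mt3 differed between the libraries both in how many cells held it and in its upper levels. Its UMIs were seen in 49.2% of cells with DBZ (46.3 to 51.97%) against 30.1% with DMSO (27.2 to 33.1%), or 32.2 against 17.3% after thinning. The clusters described further on give no cell type known to lack Mt1 or Mt2, so a background from free RNA was not measured for them. Among clusters with at least 20 cells of a library, the lowest Mt3 shares were 24.1% with DBZ and 17.6% with DMSO, both in the cluster with the deepest cells (median 23765 and 23775 UMIs), against 64.2% in the cluster led by Nts with DBZ (median 11536). The median was 0 in both. The 75th percentile was 1.62 against 0.665, the 90th 6.35 against 2.09 and the 99th 57.8 against 28.03, with highest cells at 135 and 111 UMIs per 10000. The mean was 3.29 with DBZ and 1.29 with DMSO, a log2 difference of 1.32, and 1.34 (1.26 to 1.43) from 4638 and 1480 pooled UMIs. The level was carried by few cells: the 5 highest gave 13.3% of the sum with DBZ and 26.7% with DMSO. Without those 5 cells of each library the log2 difference was 1.55.

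**Figure D1:**
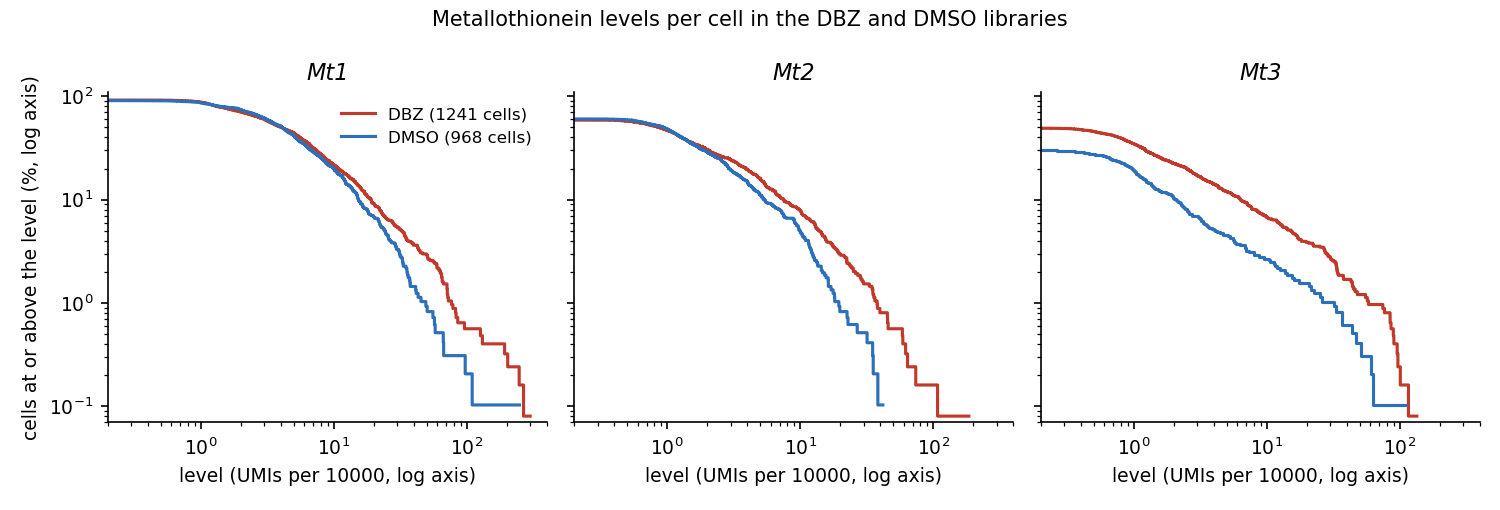
Share of cells (%, log axis) at or above each level of Mt1, Mt2 and Mt3 (UMIs per 10000, log axis) in the DBZ (red) and DMSO (blue) libraries. For Mt1 and Mt2 the lines lie together at low levels and part above about the 75th percentile, while for Mt3 the DBZ line starts at 49.2% of cells and the DMSO line at 30.1%.

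Read against all genes, Mt3 was among those with a marked difference and Mt1 was not. Of 12921 genes, 7.82% were at least 1.5-fold higher in the DBZ library and 1.89% at least 2-fold higher. Of the 3 members, 1 passed either fold (Mt3, 2.50-fold), Mt2 lay just under the lower fold (1.47-fold) and Mt1 below it (1.27-fold). Since the members were chosen on these values, nothing is read from that count. Mt3 ranked 111th of 12921 genes by its log2 difference, Mt2 1152nd and Mt1 2869th. By mean level Mt1 ranked 155th in the DBZ library and 195th in the DMSO library, Mt2 433rd and 623rd, and Mt3 424th and 1063rd. Mt4, with 430 UMIs in 5.64% of DBZ cells and 142 UMIs in 2.79% of DMSO cells, had a mean of 0.320 against 0.0825 and a log2 difference of 1.48. The 5 highest DMSO cells gave 80.5% of its DMSO sum.

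Across cells the family split into pairs. Mt1 and Mt2 went up and down together, with a Pearson correlation of 0.62 over 1241 DBZ cells and 0.51 over 968 DMSO cells (log values of cells thinned to 5000 UMIs). With each cluster's own mean removed the correlation was still 0.60 and 0.47. After thinning, Mt2 UMIs were in 50.3% of DBZ cells that had Mt1 (47.1 to 53.5%) and in 20.7% of those that did not (15.9 to 26.1%). With DMSO these were 48.7% (45.1 to 52.4%) and 19.1% (14.04 to 25.1%). Among the 114 DBZ cells with at least 20 UMIs of Mt1 per 10000, 97.4% had Mt2 UMIs, and the median Mt2 level was 13.1 against 0.678 in the other cells. Among the 66 such DMSO cells the share was 98.5% and the medians 10.6 and 0.783. The cell with the most Mt1 of all, a DBZ cell with 280 Mt1 UMIs among 9333, was also the cell with the most Mt2 (173 UMIs), and it had 0 UMIs of Mt3 and of Mt4. Between 16 and 24 UMIs of Mt1 per 10000 lay 73 DBZ and 39 DMSO cells, so the level of 20 marks a range and not a class.

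Mt3 did not follow Mt1 or Mt2. Its correlation with Mt1 was -0.03 in DBZ and 0.00 in DMSO cells, and with Mt2 0.01 and 0.00. With DBZ, Mt3 UMIs were in 32.04% of cells that had Mt1 (29.1 to 35.1%) and 32.6% of cells that did not (26.9 to 38.6%). With DMSO they were in 17.5% (14.9 to 20.4%) and 16.3% (11.5 to 21.98%), so the intervals overlapped in both libraries. Mt3 went with Mt4 instead, its neighbour on the chromosome, with a Pearson correlation of 0.49 in DBZ and 0.25 in DMSO cells, and a Spearman correlation of only 0.31 and 0.09. With DBZ, Mt4 UMIs were in 10.8% of cells that had Mt3 (7.91 to 14.2%) and 1.07% of cells lacking it (0.490 to 2.02%). The matching DMSO values were 2.40% (0.656 to 6.02%) and 0.624% (0.203 to 1.45%), from only 9 cells with Mt4 UMIs, and these intervals overlap. At full depth, Mt4 UMIs were in 44.0% of the 84 DBZ cells with at least 10 UMIs of Mt3 per 10000 and in 2.85% of the other 1157. The DMSO shares were 30.8% of 26 cells and 2.02% of 942. Mt1 UMIs were in 95.2% of the same 84 DBZ cells and 91.7% of the others, with median Mt1 levels of 3.36 and 4.14. With DMSO these shares were 88.5 and 90.9%, and the medians 5.48 and 4.09. The DBZ cell with the most Mt3 (173 UMIs) had 47 UMIs of Mt4, 8 of Mt1 and 3 of Mt2. From 8 to 12 UMIs of Mt3 per 10000 there were 25 DBZ and 8 DMSO cells, so this level too marks a range. The cells behind each correlation share 1 library, and Mt4 is sparse. The total UMIs of a cell had a correlation of 0.12 to 0.21 with Mt1 and Mt2 and of -0.09 to -0.08 with Mt3, after thinning.

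**Figure D2:**
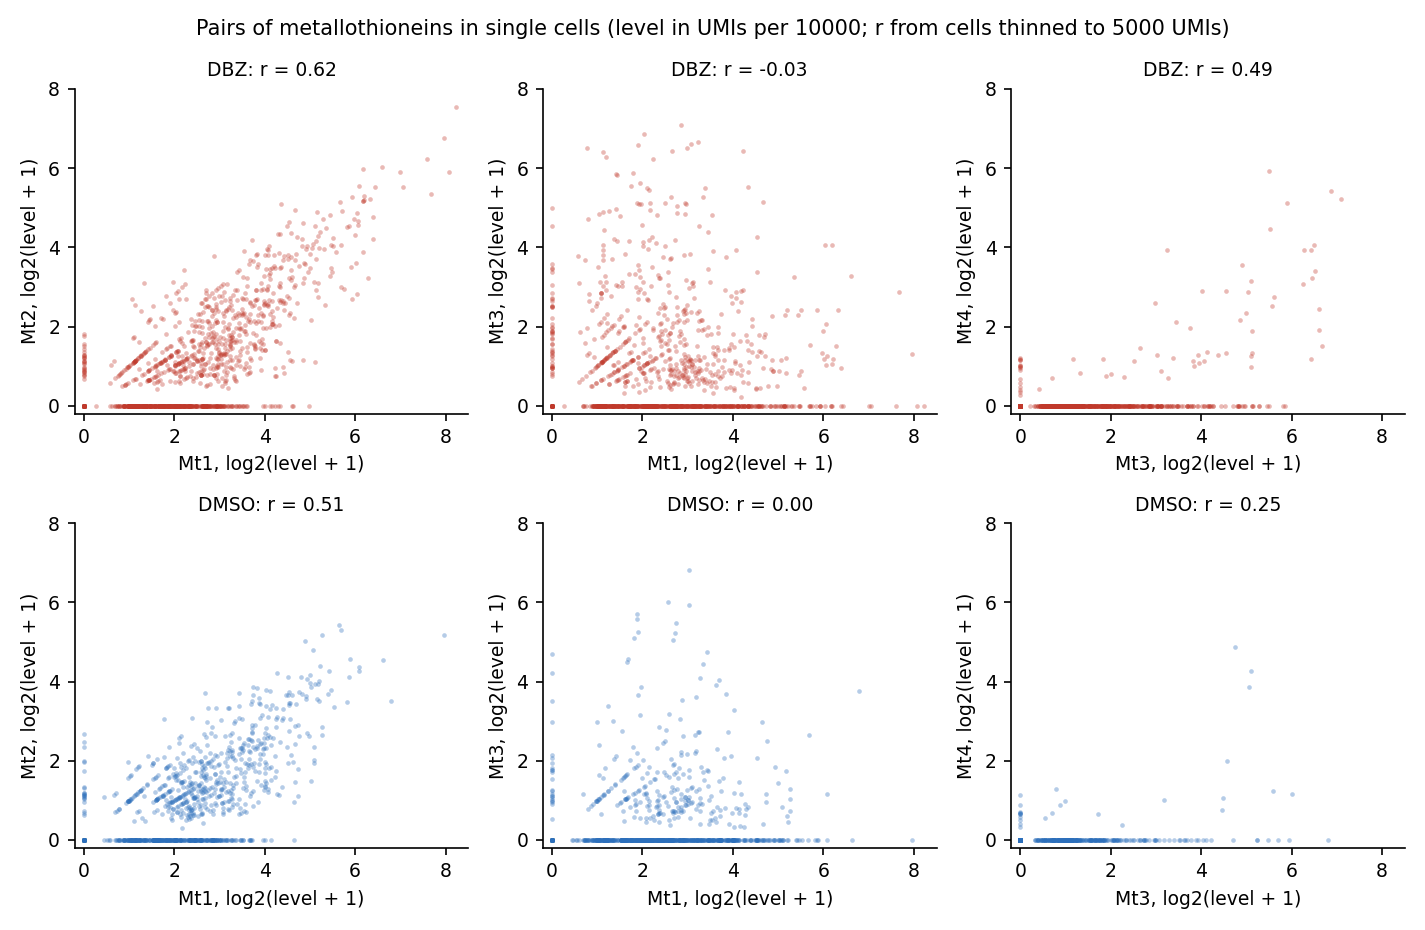
Each point is a cell, DBZ in the top row and DMSO in the bottom row, with the log2(level + 1) of a pair of metallothioneins on its axes (level in UMIs per 10000). Mt1 and Mt2 climb together (r = 0.62 and 0.51), while Mt1 and Mt3 show no joint trend (r = -0.03 and 0.00). Cells high in Mt4 are mostly cells high in Mt3 (r = 0.49 and 0.25).

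The genes most like each member were ranked by the lower of their correlations in the 2 libraries, over 7524 genes. These are the genes with UMIs in 10% or more of each library's cells (7858), less mitochondrial and ribosomal protein genes, Xist and gene models named Gm or Rik. For Mt1 the closest gene was Mt2, followed at a distance by Lgals4 (0.22 in DBZ and 0.23 in DMSO cells), which encodes an intestinal galectin, Pigr (0.16 and 0.17), the receptor that carries IgA across epithelium, Gpx2 (0.20 and 0.16), a glutathione peroxidase of the gut, and the nucleolar gene Npm1 (0.15 and 0.20). For Mt2 the list was Mt1, Lgals4 (0.18 and 0.21), Gpx2 (0.18 and 0.15), Txn1 (0.15 and 0.17), the gene of thioredoxin, and Npm1 (0.13 and 0.14). Apart from their mutual correlation these are weak, and in sparse counts nothing is read from them. For Mt3 the closest genes were Pycr1 (0.41 and 0.33), an enzyme of proline synthesis, Spock2 (0.45 and 0.33), a secreted proteoglycan, Wif1 (0.28 and 0.29), a secreted Wnt inhibitor, Pla2g2f (0.35 and 0.25), a secreted phospholipase, and the long noncoding RNA Malat1 (0.24 and 0.23). Pycr1, with a mean of 2.45 against 0.507, Spock2, with 3.33 against 0.943, Wif1, with 1.79 against 0.690, and Pla2g2f, with 3.32 against 1.19, were themselves higher in the DBZ library. Pycr1 went slightly against Mt1 (-0.21 and -0.10).

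To place the members among cell states, the cells of both libraries were clustered together with the metallothioneins left out, which gave 12 clusters numbered from 0 to 11 by size. Genes that move with the members stayed in, so the clusters are not free of them. The cluster led by the hormone genes Ghrl, Chgb and Chga (cluster 2) is called enteroendocrine-like, and the one led by Defa17 and Defa3 (cluster 10) Paneth-like. Cluster 4 was led by the mitosis genes Ube2c, Nusap1 and Cenpf. The others are called by their leading genes. Several clusters came almost wholly from 1 library and may be that library and not a state: clusters 0 (Nts, Npy, Ly6d; 274 DBZ and 9 DMSO cells), 6 (Pnliprp2, Gm12888, Dnase1; 2 and 159), 7 (Pmp22, Gdf15, H2-Q10; 7 and 151) and 8 (Cyp2c55, Msx3; 140 and 9). Means are given for clusters with at least 20 cells of a library, which were 10 for DBZ and 9 for DMSO.

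Mt1 had its highest mean in cluster 11 (Reg3b, Ly6a, Ceacam1) in both libraries, 22.3 UMIs per 10000 in 29 DBZ cells and 15.5 in 51 DMSO cells. That cluster also had the deepest cells, with a median of 23770 UMIs. In the DBZ library there followed cluster 9 (Sprr1a, Reg3g, Hmox1) with 19.98, cluster 5 (Ndufa4l2, Id1, Hes6) with 15.3, cluster 4 with 11.7, the Paneth-like cluster with 11.4, cluster 3 (Sfrp5, Amica1, Ifi27l2b) with 10.7, the enteroendocrine-like cluster with 10.2, cluster 8 with 7.31, cluster 1 (Spock2, Peg3, Cdkn1c) with 5.80 and cluster 0 with 5.65. In the DMSO library the enteroendocrine-like cluster came next with 13.4, then cluster 9 with 10.9, cluster 4 with 8.73, cluster 3 with 7.17, cluster 5 with 5.96, cluster 1 with 4.45, cluster 7 with 4.23 and cluster 6 with 3.38. Each of these neighbours overlapped in its interquartile range over cells, whereas the first and last did not. The quartiles were 10.4 to 23.2 in cluster 11 and 1.20 to 5.77 in cluster 0 for DBZ, and 8.26 to 17.98 in cluster 11 and 1.05 to 4.42 in cluster 6 for DMSO. Cluster 9 owed much of its place to few cells. Its 5 highest DBZ cells gave 68.0% of the sum, and its median was 7.32. The cells with at least 20 UMIs of Mt1 per 10000 were spread over 10 of 12 clusters in either library.

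Mt2 was likewise highest in cluster 11, with a mean of 8.30 in DBZ and 4.63 in DMSO cells. It was lowest in cluster 1 of the DBZ library (1.93) and clusters 6 and 7 of the DMSO library (1.04 and 1.01). Mt1 UMIs outnumbered those of Mt2 by 2.82 to 1 over all DBZ cells (2.73 to 2.91) and by 3.18 to 1 over all DMSO cells (3.05 to 3.31). This ratio varied over clusters, with intervals that cover counting error only. It was highest in cluster 9 of the DBZ library, at 4.82 (4.14 to 5.63), and was 3.99 (3.57 to 4.47) there in the DMSO library. In the DMSO library clusters 1 and 7 were higher still, at 4.29 (3.16 to 5.92) and 4.27 (3.596 to 5.09). It was lowest in cluster 3 in both, at 2.22 (1.96 to 2.52) and 2.64 (2.42 to 2.88). The value of cluster 9 with DBZ rests on few cells. Of its 30 cells, the 5 highest for each gene gave 68.0% of the Mt1 and 80.9% of the Mt2 sum of levels. Whether the ratio differs between clusters was not tested.

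Mt3 had its own places. In the DBZ library its mean was highest in cluster 0 (6.74), then cluster 1 (4.42), the enteroendocrine-like cluster (3.37) and cluster 4 (2.27), and it was between 0.241 and 0.813 in the other 6. In the DMSO library cluster 1 had 9.49 and the enteroendocrine-like cluster 4.02, and the other 7 lay between 0.135 and 0.939. Cluster 11, where Mt1 and Mt2 were highest, was lowest for Mt3 in both libraries. Interquartile ranges overlapped between all neighbours, and between first and last, because most cells in most clusters had no Mt3 UMI. Spock2, which with Pycr1 was most like Mt3, had 5.65 in cluster 0 and 6.52 in cluster 1 with DBZ, and 6.87 in cluster 1 with DMSO. Spock2 leads cluster 1, so its high level there follows from how the cluster is named. Elsewhere the 2 genes came apart. With DBZ, Spock2 had 3.26 in cluster 8, where Mt3 had 0.636, and 2.06 in the enteroendocrine-like cluster, where Mt3 had 3.37.

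**Figure D3:**
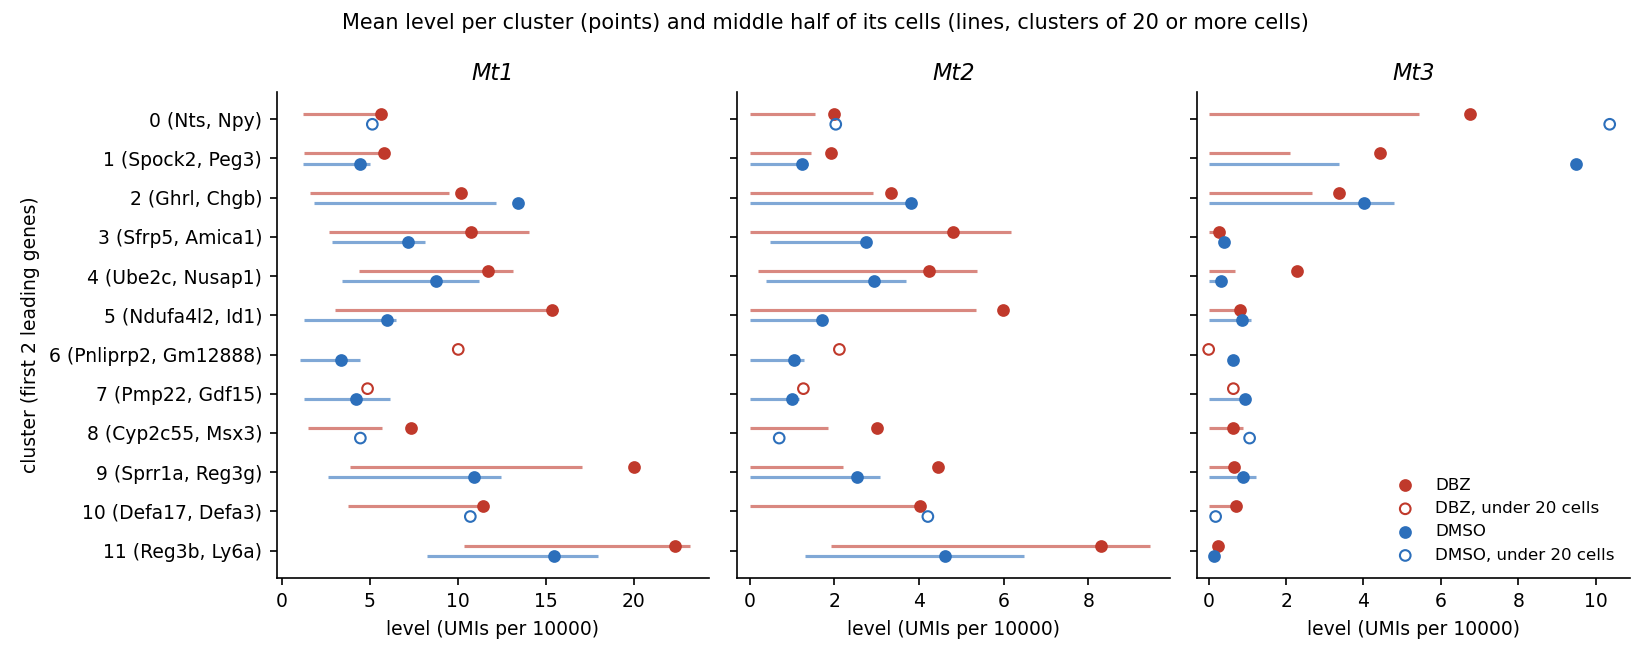
Mean level (points, UMIs per 10000) of Mt1, Mt2 and Mt3 in each of 12 clusters for the DBZ (red) and DMSO (blue) libraries, with open points where under 20 cells stand behind the mean and lines for the interquartile range over cells. Mt1 and Mt2 peak in cluster 11 (22.3 and 15.5 for Mt1), where Mt3 is lowest, and Mt3 peaks in clusters 0 and 1.

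Inside clusters with at least 20 cells of each library, of which there were 7, Mt1 and Mt2 were mostly higher with DBZ. Mt1 was higher in 6 of 7, with a median log2 difference of 0.53. The greatest was in cluster 5, led by Ndufa4l2 and Id1, where the mean was 15.3 against 5.96 and the median 6.08 against 2.85, a log2 difference of 1.36 (pooled UMIs 1.35, 1.21 to 1.49). Mt2 in that cluster had 5.99 against 1.72, a log2 difference of 1.77 (pooled 1.78, 1.53 to 2.03). Mt2 was higher in the same number of clusters, with a median of 0.79, although its median cell was higher in 4 of 7. The exception for both was the enteroendocrine-like cluster, with 10.2 against 13.4 for Mt1 (-0.39) and 3.33 against 3.81 for Mt2 (-0.19), where the 5 highest of 44 DMSO cells gave 56.0% of the Mt1 sum. Without the highest 10% of cells of each library and cluster, Mt1 and Mt2 kept these directions in all 7, with 1.26 and 1.86 in cluster 5 and -0.30 and -0.36 in the enteroendocrine-like cluster.

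For Mt3 the direction inside clusters was not that of the libraries. It was higher with DBZ in 2 of the 7 clusters and lower in 5, with a median log2 difference of -0.25, and the counting interval lay below 0 in 3 of those 5. In cluster 1 the mean was 4.42 with DBZ and 9.49 with DMSO (-1.09, pooled -1.21, -1.38 to -1.05), and in the enteroendocrine-like cluster 3.37 and 4.02 (-0.25). Of the 47 DMSO cells of cluster 1, the 5 highest gave 74.7% of the sum, and the median there was 0 against 0.621 with DBZ. In cluster 4, the mitosis cluster, the mean was 2.27 against 0.316 (2.66), of which the 5 highest of 107 DBZ cells gave 83.1%. Without the highest 10% of cells the differences in clusters 1 and 4 were -1.25 and 0.86, and 3 of 7 clusters were higher. Clusters 0 and 1 together made up 40.9% of the DBZ library but 5.79% of the DMSO library, and gave 70.5% of the DBZ and 43.2% of the DMSO sum of Mt3 levels. Outside them Mt3 still had a mean of 1.65 against 0.776, a log2 difference of 1.04. When the 7 shared clusters were given equal weight the Mt3 difference turned to -0.41, while Mt1 and Mt2 had 0.54 and 0.74. In these data a different make-up of the libraries and a different level within a state cannot be told apart for clusters found in 1 library only.

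**Figure D4:**
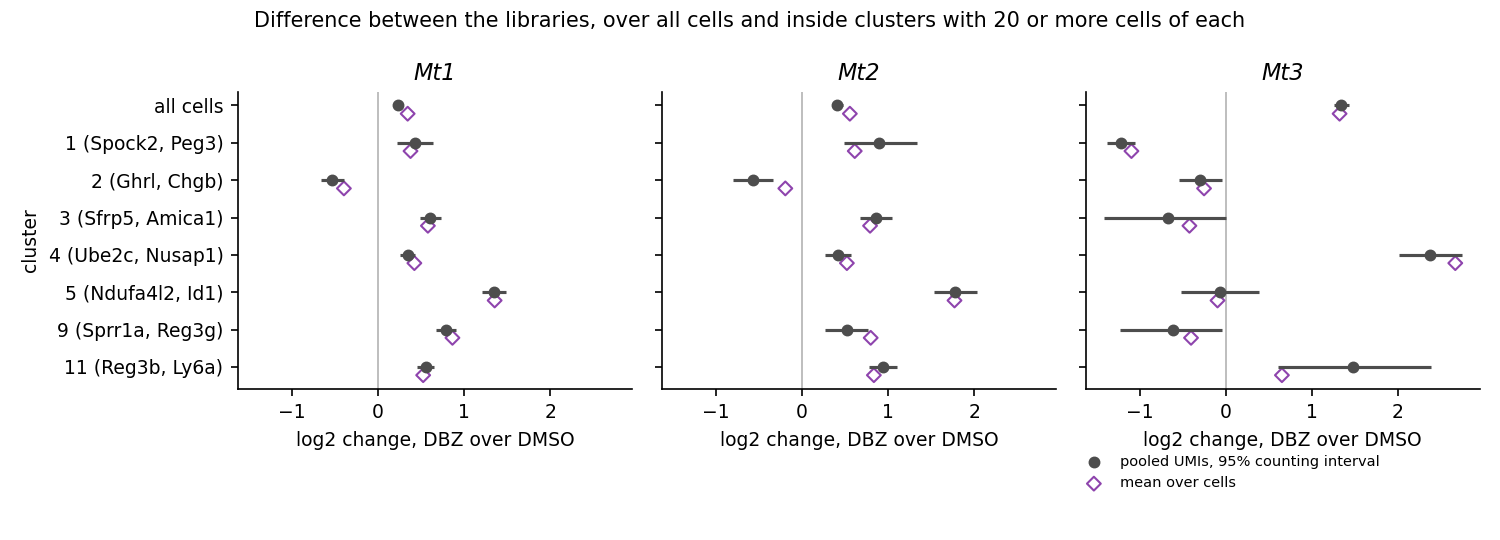
Log2 difference, DBZ over DMSO, over all cells and inside the 7 clusters with at least 20 cells of each library, from pooled UMIs (grey, with 95% counting intervals) and from means over cells (open diamonds). Mt1 and Mt2 lie above 0 in 6 of 7 clusters, and Mt3 lies below 0 in 5 of 7 although it is at 1.32 over all cells.

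Secretory markers were higher in the DBZ library, as given above. Without the enteroendocrine-like and Paneth-like clusters the log2 differences were 0.35 for Mt1, 0.59 for Mt2 and 1.53 for Mt3. With them they were 0.35, 0.56 and 1.32. Leaving out these 2 clusters does not take out all cells with secretory transcripts. Tff3, a goblet marker, had UMIs in 72.7% of all DBZ and 12.8% of all DMSO cells, and no cluster was named goblet-like. Whether secretory make-up bears on the differences was not tested. Without clusters 0 and 1 the log2 differences were 0.64, 0.87 and 1.04.

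Among genes that sense and move zinc, the values of the regulator come first. Mtf1, the zinc-sensing factor, had 0.200 UMIs per 10000 with DBZ and 0.194 with DMSO, a log2 difference of 0.04. Slc30a1, the zinc exporter that MTF1 also switches on, had 0.180 against 0.0833 (0.78, and 1.07 from 294 and 113 pooled UMIs, 0.76 to 1.40), but was higher in only 4 of the 7 shared clusters. Of 13 zinc importers (the Slc39a family), 11 were higher with DBZ, 3 of them at least 1.5-fold, and the median was 0.34, against 63.5% higher, 7.82% at least 1.5-fold higher and a median of 0.10 over all genes. The 3 were Slc39a8, with 0.486 against 0.166 (1.31, pooled 1.52, 1.30 to 1.74), Slc39a14, with 0.499 against 0.201 (1.13, pooled 1.35, 1.15 to 1.56), and Slc39a9, with 0.217 against 0.122 (0.63, pooled 0.80, 0.53 to 1.08). Each was higher with DBZ in 7 of 7 shared clusters, a count for which the share over all genes was not measured. Slc39a8 and Slc39a14 carry zinc and other metals through the surface membrane. Slc39a7, a zinc channel of the endoplasmic reticulum, had the highest level of the importers with DBZ, 0.715 against 0.520 (0.42). With DMSO that was Slc39a1, with 0.695 against 0.634 (0.12). The gene Slc39a4, the main importer of dietary zinc, had 0.414 against 0.447 (-0.10). Inside the shared clusters it was higher with DBZ in 4 of 7, with a median log2 difference of 0.34. Slc39a5 had 0 UMIs with DBZ and 11 with DMSO, too few to compare.

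Of 8 zinc exporters measured, 6 were higher, 1 of them at least 1.5-fold, with a median of 0.13. Inside the shared clusters 4 of 8 had a median above 0. For counts inside clusters, here and for the iron genes below, the share of all genes was not measured. Slc30a2, which loads zinc into secretory vesicles and was the most expressed, had 1.80 against 1.93 (-0.10), Slc30a7 0.40 and Slc30a3 -0.31. Of 11 copper genes 7 were higher and 0 passed 1.5-fold in either direction (median 0.16). The copper share is 63.6%, beside 63.5% of all genes, and the 6 of 8 exporters are to be read beside the same share. Atox1, the copper chaperone and the most expressed of them, had 5.35 against 4.01 (0.41), the copper importer homologue Slc31a2 0.39, Sco2 -0.08 and the copper pump Atp7b -0.53. Iron genes were split over all cells, 4 of 10 higher with a median of 0.00, whereas inside the shared clusters 9 of 10 had a median above 0. They ran from Ireb2 (0.45) and Cybrd1 (0.39) to Tfrc (-0.21) and Hmox1 (-1.10), with -0.12 for the ferritin chain Fth1.

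Lists of stress pathways, among them those known to act on metallothioneins, had medians below 0 over all cells, but not all of them did inside the 7 shared clusters. There 6 of 15 oxidative stress, 1 of 7 glucocorticoid and 3 of 15 hypoxia genes had a median above 0. So did 5 of 9 heat shock and 9 of 15 amino acid response genes, whose lists had medians of only 0.02 and 0.09. The share of all genes above 0 inside these clusters was not measured, so nothing is read from these counts. Across all genes tested 3.67% were at least 1.5-fold lower. Of 15 oxidative stress genes under NRF2, 11 were lower, 2 of them at least 1.5-fold, with a median of -0.14. Nqo1 had 0.0170 against 0.130 (-1.43) and Hmox1 0.136 against 0.347 (-1.10), while Prdx1, the most expressed, had 0.24 and Osgin1 0.23. Of 7 glucocorticoid response genes 4 were lower, 3 at least 1.5-fold (median -0.31), with Klf9 at -0.93 and Dusp1 at -0.84, and with Fkbp5 at 0.25 and the receptor gene Nr3c1 at 0.05. Of 15 hypoxia genes 12 were lower, 8 at least 1.5-fold (median -0.62), with Adm at -1.58, Ero1l at -1.45 and Ldha, the most expressed, at -0.69, but with Hif1a at 0.61 and Ndrg1 at 0.23. Of 9 heat shock genes 8 were lower, 2 at least 1.5-fold (median -0.27), with Hspa1a at -0.97, Dnajb1 at -0.86, Hspa8 at -0.38, Hsf1 at -0.01 and Hsph1 at 0.57. The amino acid response genes had a median of -0.08, with 9 of 15 lower, and Pycr1 stood apart from the list at 2.16 (2.45 against 0.507). Next came Chac1 with 0.58, while Asns had -0.81 and Psat1 -0.59. Among other genes near the metallothioneins on the chromosome, Ogfod1 had 0.04, Bbs2 0.07, Nup93 0.02 and Herpud1 0.08. Gnao1 had 0.58 and Nudt21 -0.24.

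**Figure D5:**
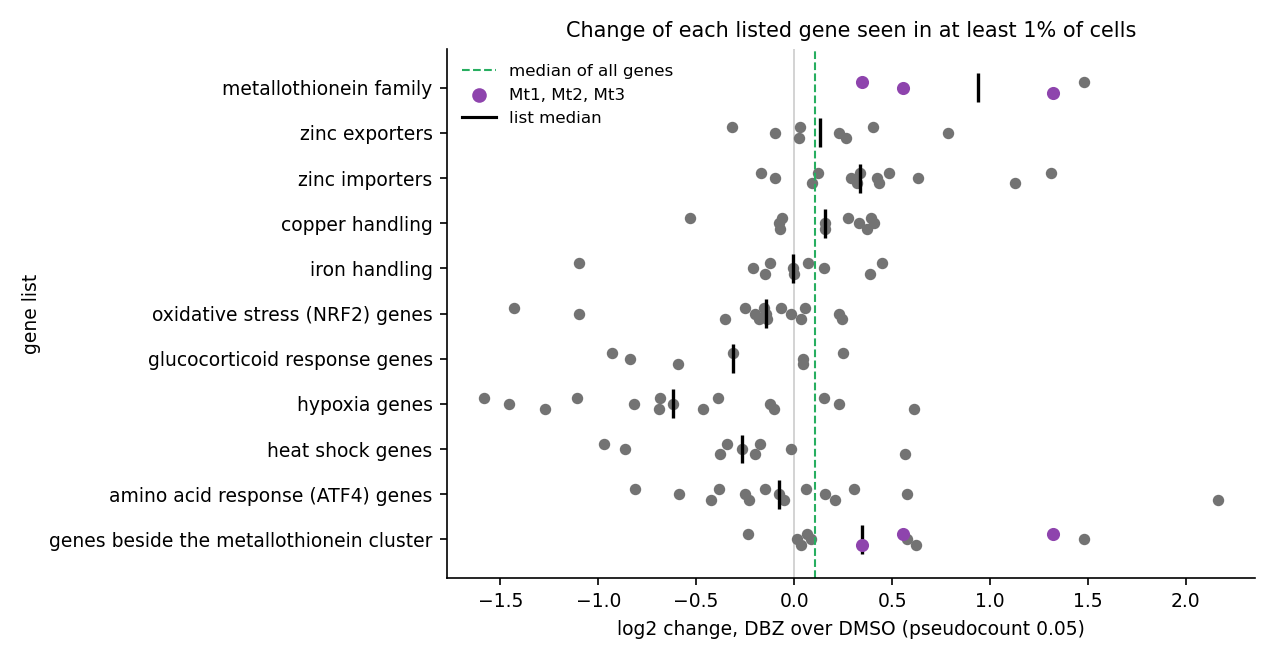
Log2 difference, DBZ over DMSO, of each gene of 11 lists with UMIs in 1% or more of either library's cells (points; Mt1, Mt2 and Mt3 in purple), with list medians as black bars and the median of all genes (0.10) as a dashed line. Zinc importers lie mostly above the median of all genes, and hypoxia, glucocorticoid and heat shock genes mostly below.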

How the data were processed

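Per the labels' protocols, cells were captured in droplets with a target of 3000, cDNA was amplified for 12 cycles, and mean reads per cell came to 113705 (DBZ) and 115754 (DMSO). Per the submitters' processing notes, Cell Ranger 2.1.1 and Seurat were used, with mm10 as build. How the authors filtered cells and genes: not given in the sources used here. Deposited values are natural log values in a single table. In every cell exp(value) - 1 summed to 10000, and all 7553435 values above 0 were whole multiples of 1 step per cell (tolerance 0.01), which gives the UMIs back. Columns beginning GSI and CTRL were read as DBZ and DMSO from the meaning of the names.

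Levels are UMIs per 10000. A log2 difference is that of the means over cells after adding 0.05, which understates low genes. Pooled values are ratios of summed UMIs, whose 95% interval conditions on their total. Shares have Clopper-Pearson 95% intervals. No test was made, as there was 1 library per group, and no count model was run on the log values. Clusters came from scanpy 1.11.5 with igraph 0.11.9 (2000 variable genes without Mt1 to Mt4, 30 components, 15 neighbours, Leiden resolution 1). To be named, a cluster needed 3 markers of 1 class among its 10 leading genes. No doublet caller was run and no cells were removed. The code was tested on simulated cells with known folds. Genes named are the members, the 5 genes most like each, all detected family, regulator and neighbouring genes, and from each other list the most expressed member and the 2 highest and 2 lowest, among those in at least 1% of cells. Slc39a9 and Spock2 across clusters were named after their values were seen, as were Slc39a1 and the high-cell levels. Members and lists were chosen with earlier results of these data known. Some genes of the lists were not analysed here, and a few genes that the naming rule picks are not reported here.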

Additional observations from a re-analysis of the deposited data

Results flagged for a closer look

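The same contrast, DBZ over DMSO, ran in opposite directions in different clusters for each member. With 1 library per group the difference between clusters was not tested. Mt1 had a log2 difference of 1.36 in cluster 5 (Ndufa4l2, Id1) and -0.39 in the enteroendocrine-like cluster 2, and Mt2 had 1.77 and -0.19 in the same clusters. Mt3 had 2.66 in the mitosis cluster 4 and -1.09 in cluster 1 (Spock2, Peg3). In cluster 4 the 5 highest DBZ cells gave 83.1% of the Mt3 sum, and in cluster 1 the 5 highest DMSO cells gave 74.7%.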

How the results depend on the processing

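Mt1 and Mt2 stayed higher in the DBZ library under each of 11 alternatives, and Mt3 under 10. Some of these could not have turned the direction. A changed pseudocount cannot alter the sign, and the limit of 1000 genes removed no cell. The exception was equal weight for the 7 clusters shared by both libraries, where the log2 difference of Mt3 reversed to -0.41, while those of Mt1 and Mt2 were 0.54 and 0.74. A pseudocount of 1 gave 0.31, 0.41 and 0.91 for Mt1, Mt2 and Mt3, and pooled UMIs gave 0.24 and 0.41 for Mt1 and Mt2. Without the 5 highest cells of each library Mt1 had 0.31 and Mt3 1.55. Among alternatives chosen after seeing the data, leaving out clusters 0 and 1 gave 0.64, 0.87 and 1.04, and leaving out the enteroendocrine-like and Paneth-like clusters gave 1.53 for Mt3. Thinning to 5000 UMIs lowered the share of cells with a UMI to 79.0 and 78.4% for Mt1, 44.1 and 42.4% for Mt2, and 32.2 and 17.3% for Mt3 (DBZ and DMSO), which fewer UMIs per cell bring about by construction. The order of clusters depended on the clustering. With the metallothioneins left in, Mt1 was highest in a cluster led by Sprr1a (15.3 UMIs per 10000), Mt2 in one led by Ube2c (4.22) and Mt3 in one led by Spock2 (11.1), and the highest cluster mean was 4.41, 4.29 and 28.9 times the lowest, against 5.18, 5.84 and 39.5. These ratios were 2.66, 2.87 and 14.8 at resolution 0.5, 4.56, 7.37 and 61.3 at resolution 2, and 3.32, 3.72 and 44.8 when centred by library. At resolution 2 and when centred by library, the cluster highest in Mt2 held 0% of the cells of cluster 11. No cell had under 1000 genes. The correlation of Mt1 with Mt2 was 0.56 and 0.46 as Spearman's rho and 0.74 and 0.66 at full depth (DBZ and DMSO). No paired analysis was possible because there was 1 library per group. Depth limits Mt3 and Mt4, which most cells showed at 0 UMIs.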
